A study of Mus musculus with 6 samples.

Results

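The genes of antigen presentation and the immunoproteasome were followed in mouse skin around a subcutaneous pump that had released a cytokine or PBS for 7 days. They are 10 genes of the 12393 with a probe set of their own. Among them are the class II chains H2-Aa, H2-Ab1 and H2-Eb1, the invariant chain Cd74 and the class II transactivator Ciita. B2m and Tap1 belong to the class I pathway, Psmb8 and Psmb9 to the immunoproteasome, and Ubd encodes ubiquitin D. A probe set was taken for a gene where the platform annotation names that gene and no other, which gave 18 of the 22690 probe sets on the array. All animals were C57BL/6 mice, and every one carried a pump, the controls included. IL-13 skin (1 array), TSLP skin (1 array) and TGF-beta skin (2 arrays, mouse 1 and mouse 2) were cut at the pump outlet. PBS distal skin (1 array) was taken from the abdomen, away from the outlet of a pump with PBS, and PBS local skin (1 array) at the outlet of such a pump. As background, IL-13 comes from type 2 helper cells, TSLP is made by epithelia and primes dendritic cells, and TGF-beta restrains immune cells and drives matrix production. Doses, ages and sex are not given in the labels, nor is it said whether both PBS pieces came from the same mouse. The 2 TGF-beta arrays are the only replicates, so differences between single arrays have no replicate check of their own. P-values are given only for comparisons with the TGF-beta pair, whose spread was borrowed, which assumes that the single arrays vary like that pair.

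MHC class I molecules, which need B2m as their light chain, present peptides cut by the proteasome in the cytosol and pumped into the endoplasmic reticulum by the Tap transporter. Psmb8 and Psmb9 replace constitutive catalytic subunits of the proteasome under interferon-gamma, and Ubd is a ubiquitin-like tag, also induced by inflammatory cytokines, that sends proteins to the proteasome. Class II molecules are made from an alpha and a beta chain on the invariant chain Cd74, and in skin they are carried by Langerhans cells, dermal dendritic cells and macrophages. Ciita does not bind DNA itself but is recruited to the X and Y boxes of class II promoters, where the RFX and NF-Y complexes sit.

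Of the 10 genes, 7 lie on chromosome 17 in the order Psmb9, Tap1, Psmb8, H2-Ab1, H2-Aa, H2-Eb1 and Ubd, with Psmb9 next to Tap1 and Tap1 next to Psmb8. Promoter windows of RefSeq (build GRCm38.p6, 250 bases before each start) were searched for 7 of the 10. Windows on the chromosome of Cd74 were left out, so its promoter was not examined, and H2-Ab1 and Ciita were not among the 7 either. Motifs were searched on both strands. The letters GATTGG, the core of the Y box, stood in 14.6% of all 32851 windows. GCAAC, a core of the X box, was held by 29.9%, and GCAAC followed by GATTGG on the same strand, with 25 to 40 bases between their first letters, by 0.24% (79 windows). This pair was present in the windows of H2-Aa and H2-Eb1, the class II promoters shown first, with both cores in capitals, since X and Y boxes are where Ciita is known to be recruited. The spacing was chosen with these sequences in view. A match is a run of letters and no measured binding.
H2-Aa, chr17:34287857-34287914, minus strand: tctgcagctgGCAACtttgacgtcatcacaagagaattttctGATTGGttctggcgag
H2-Eb1, chr17:34305766-34305822, plus strand: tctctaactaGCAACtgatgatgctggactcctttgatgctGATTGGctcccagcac
B2m, chr2:122147533-122147572, plus strand: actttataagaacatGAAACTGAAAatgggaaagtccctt
Psmb9 to Tap1, chr17:34187331-34187555, plus strand: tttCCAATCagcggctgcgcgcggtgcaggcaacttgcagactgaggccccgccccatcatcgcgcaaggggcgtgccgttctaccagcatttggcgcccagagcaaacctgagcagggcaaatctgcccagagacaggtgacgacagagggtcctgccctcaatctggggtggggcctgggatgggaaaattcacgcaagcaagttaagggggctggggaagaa

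The B2m stretch is shown as that of a member that, on the deposited scale, was not highest under TSLP. Its capitals mark GAAA, any 2 bases and GAAA, the interferon-stimulated response element, which stood in 2.98% of windows. The last stretch is shown because Psmb9 and Tap1, whose signals had near profiles, are transcribed away from each other from starts 225 bases apart. It is everything between those starts, and its capitals mark the Y core read on the Psmb9 strand. Of the class II partner genes, 2 of 15 with a window held the X and Y pair, and these were H2-Oa and H2-Ob. TTCNNNGAA, the gamma-activated site, stood in 7.02% of windows, and among the members searched it was found in the window of Psmb8.

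The median signal of an array was between 160 and 171 units, and the Actb ratio of 3' to 5' probe sets between 1.13 and 1.25. All 7 keratinocyte markers were above the filter of 165 units, Krt5 between 6030.5 and 9502 units. Some other tissue differed between the pieces. The summed signal of 5 exocrine pancreas genes was 8313 under IL-13, 7322 under TSLP, 1234 and 6035 in the TGF-beta mice, 506 in PBS distal and 2619 in PBS local skin. That of 7 hair follicle genes was 39047 in TGF-beta mouse 2 and between 390.1 and 2744 elsewhere. Neither marks an antigen-presenting cell, and their part in the results was not tested. Since these are pieces of whole skin, fewer cells of a type and less RNA per cell cannot be told apart. Levels are deposited linear signals, to be compared between arrays and not between probe sets. Differences are in log2(signal + 27.4), where 1 is 2-fold for genes well above that offset, and a gene was tested where 1 compared array reached the filter, the median of all values.

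The class II chains were far above the filter in every piece of skin. By the probe set that stands for each gene, H2-Eb1 and H2-Aa were nearly level and H2-Ab1 less so. H2-Eb1, the beta chain of H2-E, had a signal of 5402 under IL-13, 5596 under TSLP, 5513 and 5335 in the TGF-beta mice, 5571 in PBS distal and 5473 in PBS local skin. Its highest array was 1.05 times its lowest. H2-Aa, the alpha chain of H2-A, stood at 8923 under IL-13, 7687 under TSLP, 9519.9 and 8905 in the TGF-beta mice, 8645 in PBS distal and 8199 in PBS local skin. Its lowest array was that of TSLP, and its highest was 1.24 times that. H2-Ab1, the beta chain that pairs with H2-Aa, was measured at 3329 under IL-13, 4386 under TSLP, 3736 and 3536 in the TGF-beta mice, 3717 in PBS distal and 3745 in PBS local skin. Here the TSLP array was above all the others, by 0.23 over PBS local, which came next.

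The alpha partner of H2-Eb1 gives a check of the floor of these arrays. C57BL/6 mice are known to make no H2-Ea transcript, and all 3 H2-Ea probe sets lay between 0.214 and 15.9 units. Other probe sets of the class II chains differed from these in part. A further H2-Aa probe set was level too, between 3657 in PBS distal skin and 4428 under IL-13, and its TSLP signal of 4283 was 1.01 times the 4235 of PBS local. Of the further H2-Ab1 probe sets, 1 had 1415 units under IL-13, 2108 under TSLP, 1681 and 1269 in the TGF-beta mice, 1593 in PBS distal and 1897 in PBS local skin. The other had 2019 under IL-13, 2799.6 under TSLP, 2422 and 2159 in the TGF-beta mice, 2363 in PBS distal and 2755 in PBS local skin. Both were highest under TSLP, close to PBS local, and lower on the other arrays, with ranges of 1.66-fold and 1.39-fold that are wider than the 1.32-fold of the probe set given first.

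Cd74, the invariant chain that guides class II molecules to endosomes, had 3266 units under IL-13, 4019 under TSLP, 3122 and 3599.9 in the TGF-beta mice, 3344 in PBS distal and 3993 in PBS local skin. TSLP and PBS local skin had the 2 highest signals, 0.01 apart, and the other 4 arrays were between 0.15 and 0.35 below PBS local. The 2 TGF-beta mice differed by 0.20 from each other and were themselves the highest and lowest of those 4 arrays. The order among the 4 is thus not resolved.

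Ciita, the transactivator, was dim. Its signal was 125 under IL-13, 186 under TSLP, 97.5 and 80.3 in the TGF-beta mice, 96.7 in PBS distal and 113 in PBS local skin. Only the TSLP array reached the filter, so the gene entered the comparisons through the array where it was highest. TSLP exceeded PBS local by 0.61 and IL-13, the next array, by 0.49, while the TGF-beta mice lay 0.21 apart. The other Ciita probe set was below the filter on all 6 arrays and also highest under TSLP, at 143 units, against 121 in PBS local skin.

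B2m and Tap1 are the members of the class I pathway, and on the deposited scale B2m was lowest and Tap1 highest under TSLP. B2m had 12224 units under IL-13, 9637 under TSLP, 13010.3 and 12351 in the TGF-beta mice, 12021 in PBS distal and 10249 in PBS local skin. The TSLP and PBS local arrays were the lowest of the 6, and IL-13, both TGF-beta mice and PBS distal were 0.25, 0.34, 0.27 and 0.23 above PBS local. After quantile normalization, which gives all arrays the same distribution, these 4 differences were 0.09, 0.05, 0.08 and 0.05, and that of TSLP turned from -0.09 to 0.11, the same direction as Tap1. A second B2m probe set had 9680.1 units under TSLP and 11055 in PBS local skin.

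Tap1, a subunit of the peptide transporter, had 1209 units under IL-13, 1692 under TSLP, 1005 and 1183 in the TGF-beta mice, 1379 in PBS distal and 1161 in PBS local skin. The TSLP array lay above the 5 others, by 0.53 over PBS local and 0.29 over PBS distal, the next highest. The TGF-beta mice differed by 0.23. The 3 other Tap1 probe sets were between 0.373 and 21.7 units on all arrays, near the values of H2-Ea, and give no second measure.

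The immunoproteasome subunits were highest under TSLP as well. Psmb8, which replaces Psmb5, had 1745 units under IL-13, 2321 under TSLP, 1669.8 and 1421 in the TGF-beta mice, 1690.4 in PBS distal and 1647 in PBS local skin. TSLP was 1.41 times PBS local and the other arrays lay within 0.21 of PBS local in either direction. Psmb9, which replaces Psmb6, had 1024 units under IL-13, 1576 under TSLP, 965 and 979 in the TGF-beta mice, 1167 in PBS distal and 962 in PBS local skin. TSLP was 1.64 times PBS local, and the gap of 0.43 to the next array, PBS distal, stood beside a gap of 0.02 between the TGF-beta mice.

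Ubd had the widest range of the 10 genes. Its signal was 70.6 under IL-13, 264 under TSLP, 56.8 and 23.6 in the TGF-beta mice, 34.7 in PBS distal and 41.1 in PBS local skin. Like Ciita, Ubd reached the filter on the TSLP array alone, where its signal was 1.60 times that filter. Taking the filter as the level of the dimmer arrays, TSLP skin was at least 1.60-fold higher than each of them. The log2 differences were 2.09 from PBS local and 1.57 from IL-13 skin, values that depend on the offset since both of those arrays were dim, and the TGF-beta mice differed by 0.72.

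**Figure D1:**
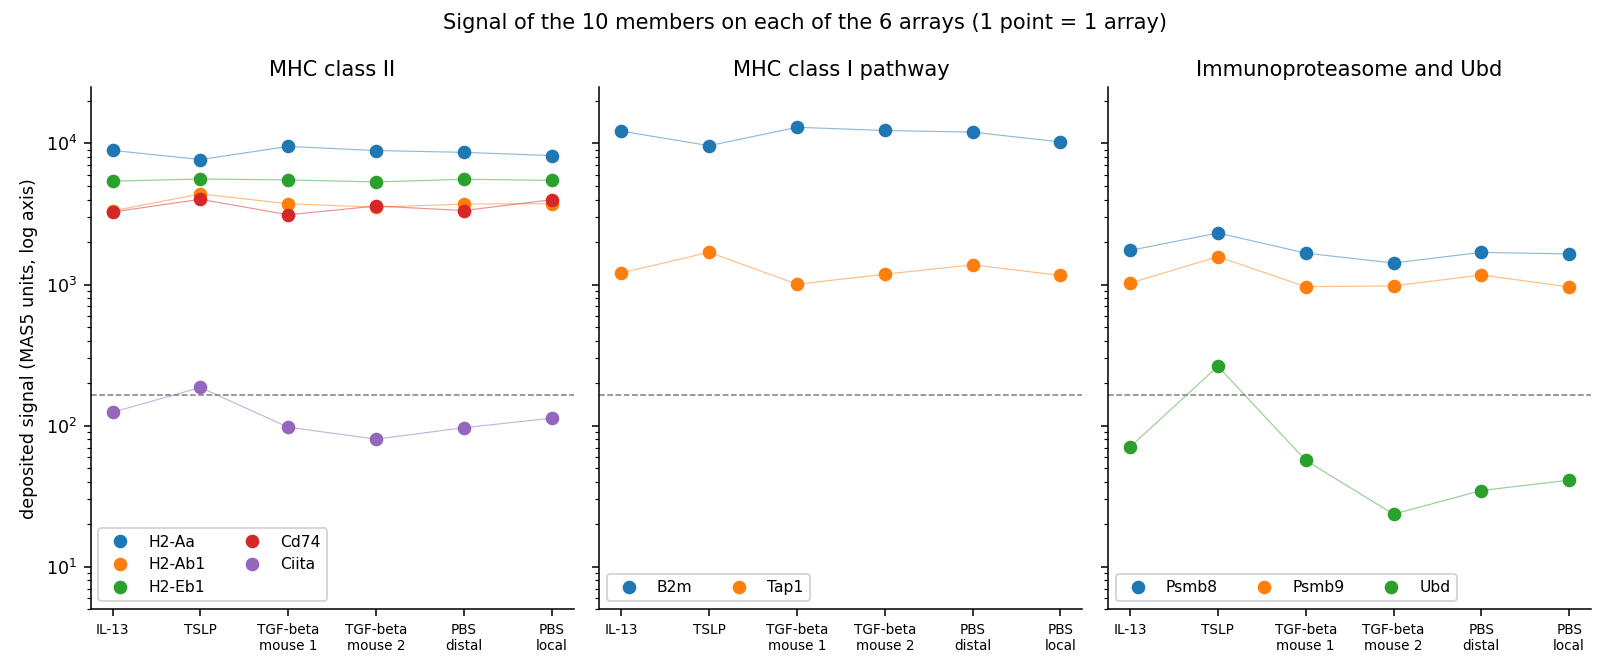
Deposited signal (MAS5 units, log axis) of the 10 genes on each array, 1 point an array, with a thin line joining the points of 1 gene and a dashed line at the filter of 165 units. Ubd and Ciita cross the dashed line on the TSLP array only, and Tap1, Psmb8 and Psmb9 have their highest point there, whereas H2-Eb1 is level.

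Under TSLP, then, the peptide-supplying genes Tap1, Psmb8 and Psmb9 were 0.49 to 0.70 above PBS local skin, Ubd 2.09 and Ciita 0.61, and the structural genes H2-Aa, H2-Eb1, Cd74 and B2m were within 0.09 of it, with H2-Ab1 at 0.23. By the size rule of 2-fold, Ubd was higher and 0 of 10 were lower, where 0.998% and 0.447% of 7614 genes were higher and lower. The median over all 10 was 0.36, against -0.01 over all genes tested. Since Ubd and Ciita passed through the TSLP array alone, the median over the 8 genes above the filter on both arrays is given too, and was 0.13. The 5th and 95th percentiles of all genes were -0.43 and 0.48, and Tap1, Psmb8 and Psmb9 were above the higher of these. Ciita and Ubd were too, but a high TSLP value is what let them into the comparison. With PBS distal in place of PBS local, the difference was 0.29 for Tap1, 0.45 for Psmb8, 0.43 for Psmb9, 0.78 for Ciita and 2.23 for Ubd. For these comparisons between single arrays only the sizes of the differences are given, without a p-value.

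TSLP could be set against the 2 TGF-beta mice in limma, which leaves out PBS local. Psmb9 was at 1576 units under TSLP, against 972 ± 10.2 under TGF-beta (SD, n = 2), a log2 difference of 0.68 with a standard error of 0.16. Tap1 was at 1692 under TSLP and 1094 ± 126 under TGF-beta, a difference of 0.62. Psmb8 was at 2321 under TSLP and 1545 ± 176 under TGF-beta, a difference of 0.58. B2m lay the other way, at 9637 under TSLP and 12681 ± 466 under TGF-beta, a difference of -0.39 that turned to 0.04 after quantile normalization. These 4 had unadjusted p-values in limma of 0.011, 0.027, 0.034 and 0.032, each with an adjusted p of 0.676, so 0 of 10 were called, as were 0% of the 7763 genes tested. Across all 7763, 568 had an unadjusted p under 0.05. Ubd was at 264 units under TSLP, against 40.2 ± 23.5 under TGF-beta, and Ciita at 186 under TSLP, against 88.9 ± 12.2 under TGF-beta. Both entered this comparison and that with IL-13 through the TSLP array alone. Ubd was the 1 member at least 2-fold above both mice, as were 0.515% of genes, and its adjusted p in limma was 0.717. Against IL-13 it was again the 1 member past 2-fold, where 0.82% of genes were, and Tap1, Psmb8 and Psmb9 exceeded IL-13 by 0.48, 0.41 and 0.61. Of 6 dendritic and Langerhans cell genes, 5 were higher under TSLP than under TGF-beta, where 56.4% of genes were. Their median difference was 0.62, and the part of these cells was not tested.

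**Figure D2:**
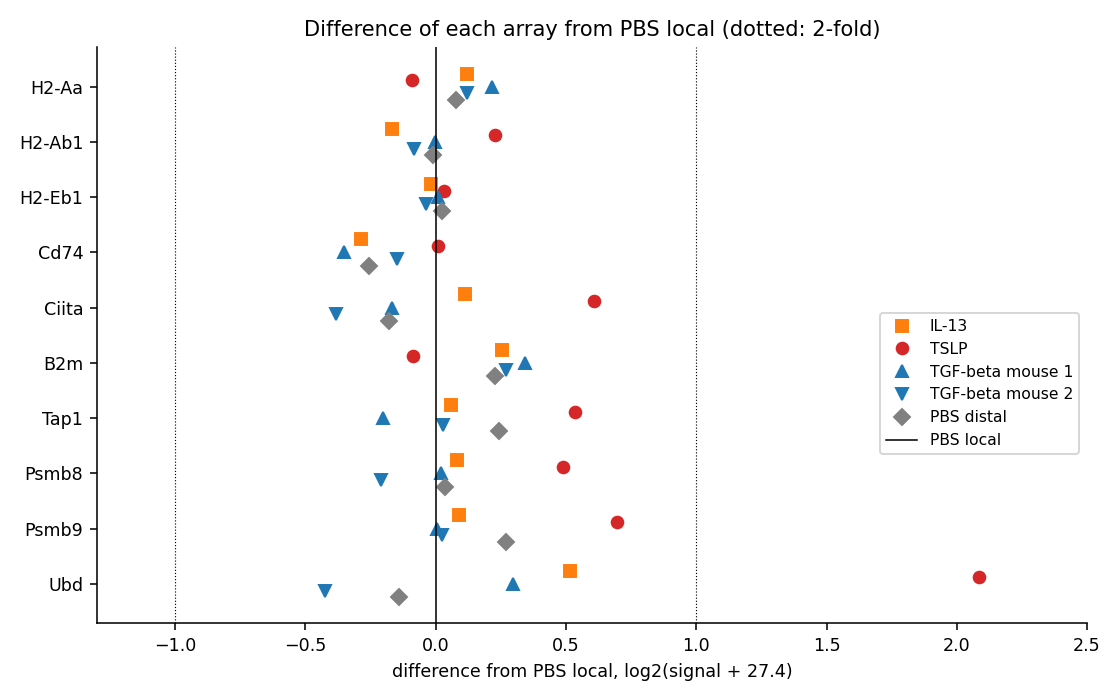
Log2 difference of each array from PBS local skin (the vertical line at 0) for the 10 genes, 1 symbol an array, with dotted lines at 2-fold. The TSLP points of Ubd, Psmb9, Ciita, Tap1 and Psmb8, from 2.09 down to 0.49, stand to the right of the other arrays, while the other symbols lie between -0.43 and 0.52.

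Counted by array, the TSLP piece held the highest of 6 values for 8 of the 10 genes (6 of the 8 above the filter everywhere), a count made after the values were seen, where it held the highest value of 18.9% of 7945 genes. For H2-Eb1 and Cd74 that lead was 0.01, less than the 0.05 and 0.20 between the TGF-beta mice. H2-Aa and B2m had their lowest value there. These are the 2 brightest signals of the 10, and the bright end of the TSLP array was low as a whole: its 99th percentile was 7789.8 units, against 8526 to 10557 on the other arrays. Of 166 genes with a mean signal of at least 7000, a limit set after the values were seen, 145 were lower under TSLP than in PBS local skin, with a median of -0.14. After quantile normalization that median was 0.01, and H2-Aa and B2m turned from -0.09 each to 0.05 and 0.11 above PBS local. All 10 genes then had their highest value under TSLP, as did 15.9% of all genes. For B2m and Cd74 that lead was 0.02 and 0.03, less than the 0.04 and 0.23 between the TGF-beta mice. Ubd and Ciita, counted among the 10, had reached the filter as deposited on the TSLP array alone. Tap1, Psmb8, Psmb9 and Ubd were at 0.53, 0.49, 0.71 and 2.05, close to their values without that step.

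**Figure D3:**
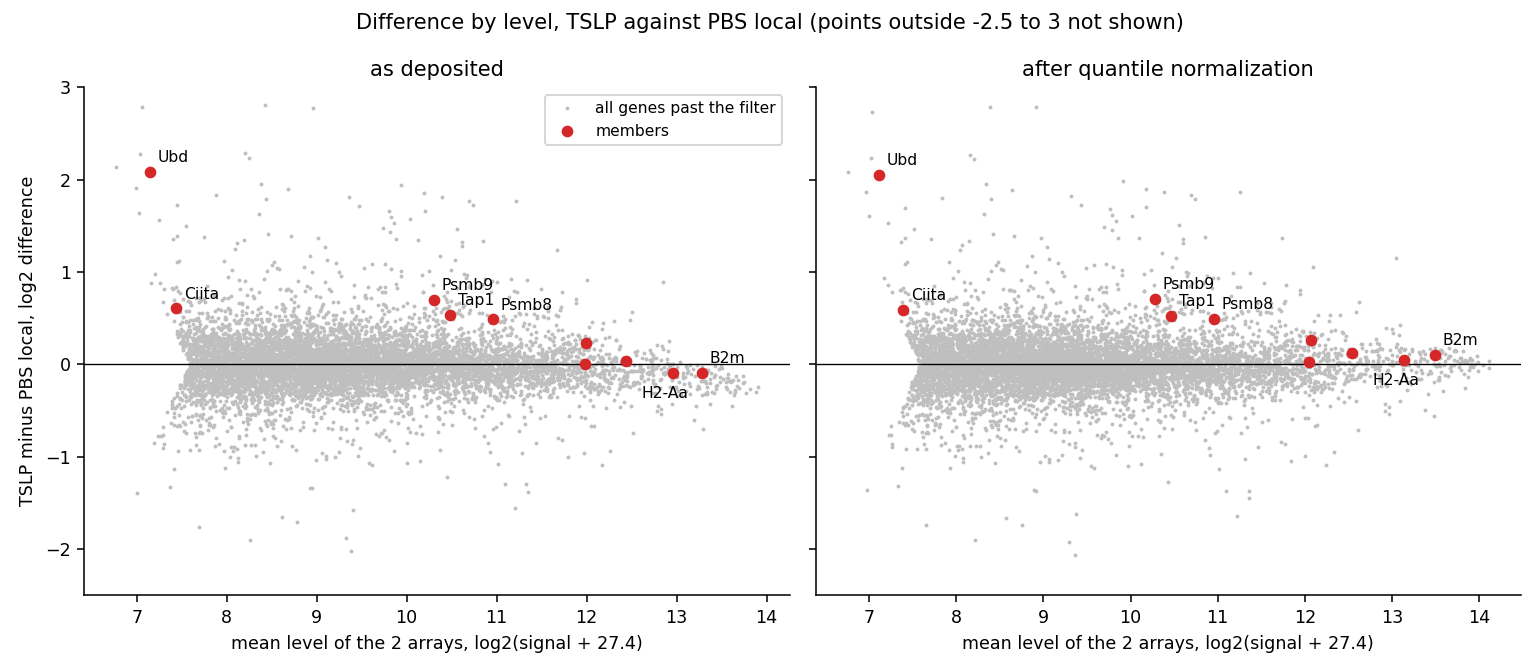
TSLP minus PBS local (log2 difference) against the mean level of both arrays for all genes past the filter (grey) and the 10 genes (red), on the deposited scale at left and after quantile normalization at right. The grey cloud bends below 0 at high level at left and not at right, and H2-Aa and B2m sit in that bend, at -0.09 each at left and 0.05 and 0.11 at right.

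In the other comparisons with PBS local skin, 8 of the 10 genes reached the filter and 0 of the 8 differed 2-fold. Ubd and Ciita were under the filter there and not compared, with Ubd at 0.52 under IL-13 and -0.43 in TGF-beta mouse 2, and Ciita at -0.38 in mouse 2. Under TGF-beta 8 genes were tested, and 0 differed 2-fold in the same direction in both mice, where 0.181% of 7741 genes were higher and 0.155% lower. In limma 0 of 8 were called, as were 0% of genes. Of the 8, 0 had an unadjusted p under 0.05, where 355 of the 7741 genes did. B2m had the smallest p, with a mean difference of 0.31, a standard error of 0.12 and an adjusted p of 0.864. The median of the 8 was -0.03, against -0.05 over all genes. Mouse 1 and mouse 2 lay on opposite sides of PBS local for Tap1, at -0.20 and 0.03, and for Psmb8, at 0.02 and -0.21. Of 6 dendritic and Langerhans cell genes, 0 were above PBS local by the mean of both mice, where 41.9% of genes were. Their median was -0.49, with Cd207 at -0.66 and -0.84. Of 12 macrophage genes 7 were above, with a median of 0.05. The 4 B and plasma cell genes had a median of -0.52, with Ms4a1 at -0.20 and -1.64. The part of these cells was not tested.

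Under IL-13 0 of 8 genes were 2-fold higher or lower, where 1.12% and 0.41% of 7562 genes were, and the median was 0.07, against -0.07 over all genes. Cd74 was 0.29 below and B2m 0.25 above PBS local, and the sign of H2-Aa was 0.12 as deposited and -0.04 after quantile normalization. Tap1, Psmb8 and Psmb9 were within 0.09 of PBS local. Of 6 dendritic and Langerhans cell genes, 0 were above PBS local under IL-13, where 39.8% of genes were, with a median of -0.20. Of 12 macrophage genes 11 were above it, with a median of 0.20. The part of these cells was not tested. Set against TGF-beta in limma, 0 of 8 members were called under IL-13, as were 0% of 7674 genes. Of the 8, 0 had an unadjusted p under 0.05, where 179 of the 7674 genes did.

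In PBS distal skin 0 of 8 genes were 2-fold higher or lower, where 0.788% and 3.51% of 7617 genes were. The median was 0.06, against -0.01 over all genes. Tap1 was 0.24 and Psmb9 0.27 above PBS local, and H2-Aa, H2-Ab1 and H2-Eb1 were 0.08, -0.01 and 0.03 from it. Cd74 was at -0.25. The further H2-Ab1 probe sets were at 0.84 and 0.86 times PBS local, and that of H2-Aa at 0.86 times. Macrophage and leukocyte markers were lower too. All 12 macrophage genes (Adgre1, Csf1r, C1qa and others) were lower in distal skin, with a median of -0.44, and their summed signal was 42217 in PBS distal and 53922 in PBS local skin. The 4 leukocyte genes summed to 7834 in PBS distal and 10634 in PBS local skin, and all 4 were lower in distal skin, Ptprc, the common leukocyte antigen, by 0.53. Of 6 B and plasma cell genes measured, 4 passed the filter (Cd79b, Ms4a1, Ighm and Jchain). All 4 were past 2-fold lower in distal skin, where 3.51% of genes were, with a median of -1.72. Only Ighm, at -1.17, reached the filter on both arrays, and the others passed through PBS local alone. Of 6 dendritic and Langerhans cell genes, 4 were above PBS local in distal skin, with a median of 0.19. Cd207, the Langerhans cell lectin, had 528 units in PBS distal and 326 in PBS local skin, while Itgax and Cd209a were at -0.19 and -0.32. The part of these cells in the level of the class II genes was not tested.

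The partners of the 10 genes were read from lists of pathway genes. In the class II list, 10 of 18 passed the filter, and under TSLP 0 were past 2-fold, 7 were above PBS local, as were 48.7% of all 7614 genes, and the median was 0.18. H2-DMa, a chain of the peptide exchanger for class II, picked after its values were seen, had 1059 units under IL-13, 1741 under TSLP, 988 and 862 in the TGF-beta mice, 1069 in PBS distal and 1032 in PBS local skin. It was 0.74 above PBS local, more than any of the class II chains, and its unadjusted p against TGF-beta in limma was 0.0067, with an adjusted p of 0.676. In distal skin 1 class II partner was past 2-fold lower, where 3.51% of genes were. Lgmn, a lysosomal protease that trims the invariant chain and antigens, had 1687 units there and 3885 in PBS local skin, a difference of -1.19.

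In the class I list, 12 of 25 passed the filter. The 12 include H2-Ke6, at -0.12 under TSLP, which is not itself a class I gene. Under TSLP 6 of 12 were above PBS local, the median was 0.00 and 0 were past 2-fold, and after quantile normalization 8 of 12 were above it with a median of 0.10. The heavy chains H2-K1 and H2-D1 were at 9042 and 7456 units under TSLP, against 9117 and 7944 in PBS local skin. Both have near-identical relatives, and their probe sets may read more than 1 gene. Tapbp, which holds class I molecules at the transporter, was 0.51 above PBS local under TSLP, whereas Tap2, the second half-transporter, was at 571 units under TSLP and 617 in PBS local skin. Both were picked after their values were seen.

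Of the immunoproteasome and activator partners, 4 of 7 were measured, and under TSLP 3 of the 4 were above PBS local, with a median of 0.18. Psme1, an activator subunit, was at 0.33, the assembly factor Pomp at 0.03 and the activator Psme3 at -0.23. Psmb10, the third immunoproteasome subunit, had 1192 units under IL-13, 1844 under TSLP, 1165 and 1039 in the TGF-beta mice, 1092 in PBS distal and 1162 in PBS local skin. TSLP was thus the highest array for Psmb8, Psmb9 and Psmb10 alike, 0.65 above PBS local for the last. Of the 14 genes of the constitutive core, 6 were above and 8 below PBS local under TSLP, with a median of -0.05, and 0 were past 2-fold. Against TGF-beta, all 14 were lower under TSLP, with a median of -0.21 (-0.12 with 1 of 14 higher after quantile normalization). Psmb5 and Psmb6, the subunits that Psmb8 and Psmb9 replace, were at 2256 and 2351 units under TSLP, against 2323 and 2563 in PBS local skin. Psmb7, which Psmb10 replaces, had 671 units under IL-13, 644 under TSLP, 829 and 793 in the TGF-beta mice, 1182 in PBS distal and 1259.8 in PBS local skin. All 4 cytokine arrays were thus below both PBS arrays for this gene.

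The interferon-gamma list was above PBS local under TSLP for 7 of 8 genes, with 48.7% of all genes above it, and its median was 0.35. Irf1, a transcription factor that acts on class I and immunoproteasome genes, had 660.5 units under IL-13, 1360.3 under TSLP, 703 and 659 in the TGF-beta mice, 601 in PBS distal and 662 in PBS local skin. The TSLP array stood apart from the 5 others, which lay close together, and was 1.01 above PBS local. Ifng itself was below the filter on all arrays, between 5.54 and 30.2 units. Of the co-stimulation list, 5 of 8 genes passed the filter and all 5 were above PBS local, with a median of 0.49. Cd274 passed through the TSLP array alone, and without it the 4 others had a median of 0.41. Cd274, the ligand of the PD-1 receptor, had 409 units under TSLP and 259.6 under IL-13, against 148 in PBS local skin, and 145 to 156 on the other 3 arrays. In distal skin Irf8, a factor of myeloid cells, was past 2-fold lower, with 218 units in PBS distal and 602 in PBS local skin. So was Cd83, a marker of mature dendritic cells, with 67.6 units in PBS distal and 214 in PBS local skin.

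Other cells also differed between the TSLP and PBS local pieces. T and NK cell genes (11 of 12 measured) summed to 2296 units under TSLP, against 1295 in PBS local skin, and to 1592 under IL-13, 1552 and 1807 in the TGF-beta mice and 1043 in PBS distal skin. Gzma and Gzmb, the granzymes, were past 2-fold higher under TSLP, as were 0.998% of 7614 genes. Gzmb reached the filter there through the TSLP array and not in PBS local skin. Gzma was also past 2-fold in both TGF-beta mice, at 1.08 and 1.42 above PBS local, against 1.41 under TSLP. Cd3e, Cd4, Cd8a, Cd2 and Il2rb were below the filter on every array. The leukocyte sum was 11924 under TSLP and 10634 in PBS local skin. Of 12 macrophage genes, 8 were above PBS local under TSLP, with a median of 0.04 (11 and 0.10 after quantile normalization). Endothelial genes had a median of 0.25 there. The 4 B and plasma cell genes that passed had a median of -0.14, with 1 of the 4 above PBS local. Keratinocyte, fibroblast and skeletal muscle genes had medians of -0.25, -0.30 and -0.27 (-0.24, -0.05 and -0.05 after quantile normalization). Dendritic and Langerhans cell genes summed to 3394 under TSLP and 3486 in PBS local skin, and 6 of the 12 measured, Flt3, Zbtb46, Xcr1, Ccr7, Ccl17 and Ccl22, were below the filter everywhere. Of the 6 that passed, 3 were above and 3 below PBS local under TSLP, with a median of 0.01. Cd207, Batf3 and Itgax were at 0.38, 0.60 and 0.28, and Cd209a, Irf4 and Epcam at -0.26, -0.28 and -0.33. The part of these cells in the TSLP values was not tested.

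**Figure D4:**
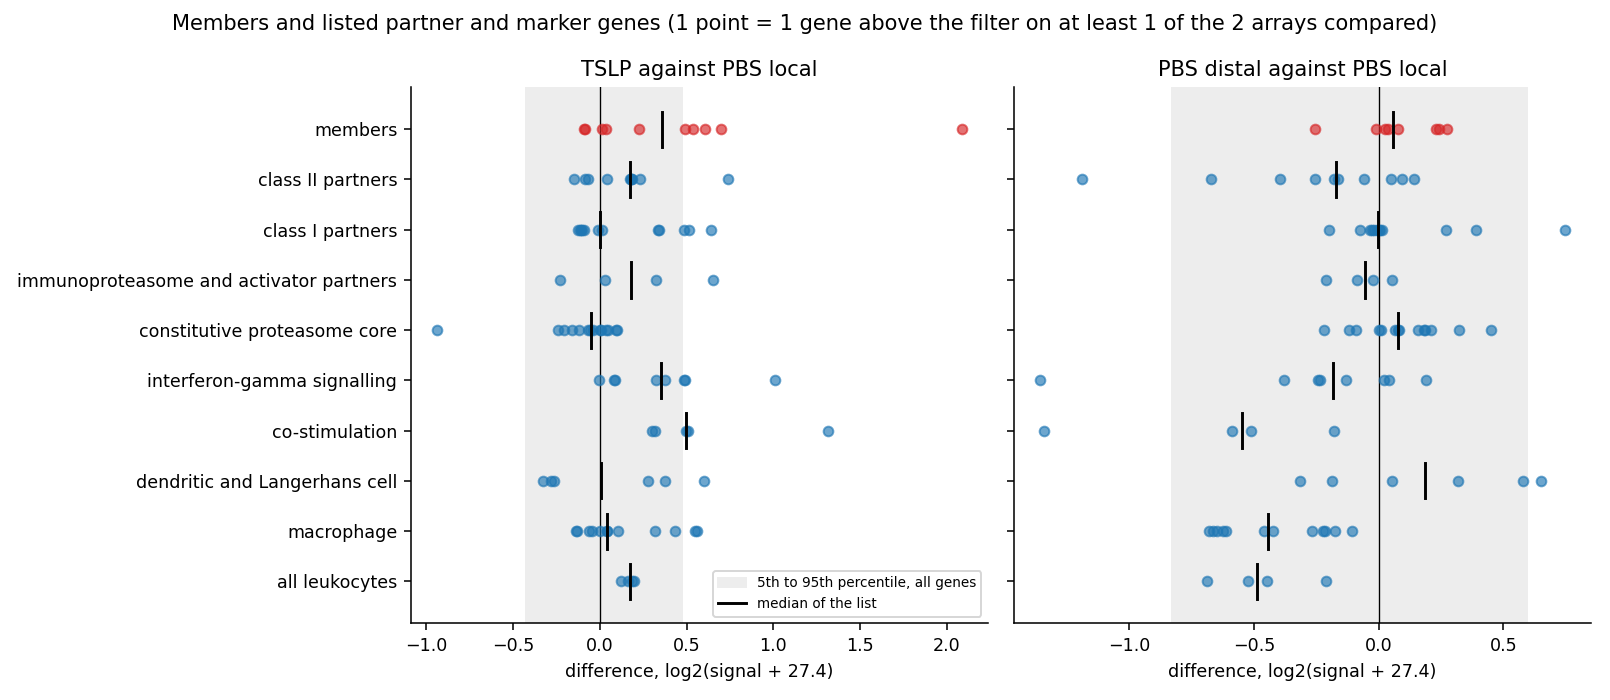
Log2 difference from PBS local skin of TSLP skin (left) and PBS distal skin (right) for the 10 genes (red) and listed genes (blue), 1 point a gene that reached the filter on either array, with a bar at the median and grey from the 5th to the 95th percentile of all genes. Under TSLP the medians are 0.36 for the 10 genes (0.13 for the 8 at the filter on both arrays), 0.35 for interferon-gamma signalling and -0.05 for the constitutive core, and in distal skin the macrophage median is -0.44.

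The genes whose profile over the 6 arrays came nearest were sought among 7945, by the root mean square distance between log2 profiles centred on their means. Nearest to Ubd were Igtp (0.15), Gbp2 (0.28) and Iigp1 (0.29), GTPases induced by interferons. Igtp had 1029 units under IL-13, 3016 under TSLP, 896 and 675 in the TGF-beta mice, 746 in PBS distal and 865 in PBS local skin, the same order of arrays as Ubd. Nearest to Ciita came Ifi209 (0.05), Irgm1 (0.06) and Ikbke (0.07), also highest under TSLP. Genes picked by profile share the order of arrays largely through that choice, so a shared order is no separate result. Ubd and Ciita reached the filter on the TSLP array alone. Their distances thus rest on that array and on dim values that depend on the offset. Psmb9 and Tap1, which share the stretch of 225 bases printed at the start, were 0.08 apart, each second in the list of the other. Ahead of Tap1 in the list of Psmb9 stood Tfap2b (0.08), and after it Hnmt (0.09), while the list of Tap1 opened with Dok2 (0.08). For Psmb8 the list was Prkcd, Iqsec1 and Trim21, all at 0.05. The flat members have many neighbours, 1229 genes within 0.1 for H2-Eb1 and 494 for H2-Aa, so their nearest genes carry little: Pip4p2, Pdcd6 and Ccdc186 for H2-Eb1, Arpc2, Cttn and Ywhab for H2-Aa, Anks1, Rnf214 and Ireb2 for H2-Ab1, Mbtps1, Serhl and Urm1 for Cd74, and Rcn1, Fau and Rps3a1 for B2m.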

How the data were processed

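Total RNA of 6 skin samples was labelled with biotin and hybridised to single-colour Affymetrix arrays, 1 per sample. Per the submitters' processing notes, the deposited intensities were computed by MAS5 (version not given in the sources used here) and give 1 linear value for each probe set on an array. Detection calls were not used here. The trimmed means of the arrays (2% left out at each end) lay between 500.16 and 500.2, so each array was already on a common scale, and 0 columns of samples were left unused. Gene names come from the platform annotation, updated by gene number through RefSeq (GRCm38.p6) for 20351 of 20380 probe sets with 1 gene.

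Signals were scaled to the mean trimmed mean and turned into log2(signal + 27.4), the 25th percentile as offset. The probe set with the highest mean stood for a gene, and the filter was 165 units, the median, on at least 1 compared array. limma 3.58.1 under R 4.3.3 was fitted to 6 arrays in 5 groups with an intensity trend, with 1 residual degree of freedom from the TGF-beta mice and Benjamini-Hochberg adjustment at 0.05. It was run on simulated data for the TGF-beta comparison, with noise drawn from its own fitted spread. That run does not check whether the single arrays vary like the TGF-beta pair. The size rule was a log2 difference of 1, in both mice for TGF-beta. The number of arrays limits the precision. All 10 members are named, partner genes where they passed the size rule or a member's result turned on them, and the 3 nearest profiles of each member. The members, lists, motifs and tests were chosen with earlier results of these data known.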

Additional observations from a re-analysis of the deposited data

How the results depend on the processing

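Over 16 counts and medians, 123 of 131 recomputed values stayed within the tolerance (1.5 times for a count, 1 SD between the TGF-beta mice for a median) and 8 moved. The TGF-beta median, -0.028 as reported, crossed 0 within it, at 0.00046 with the mean of a gene's probe sets and at 0.0070 without mouse 2. After quantile normalization the members' median against PBS local became 0.016 for IL-13, -0.076 for TGF-beta and -0.0080 for PBS distal skin. Against PBS distal it was -0.039 under IL-13 and 0.28 under TSLP. The TSLP median was 0.27 with the mean of a gene's probe sets and 0.13 where both arrays had to reach the filter, which also left 0 members past 2-fold because that filter removes Ubd. Leaving out either TGF-beta mouse put the TGF-beta median between -0.0061 and 0.0070, with 0 members past 2-fold. In the comparisons with the TGF-beta pair, limma called 0 members under each setting run. It called 0 of all genes there too, except after quantile normalization. That setting called 4 of 7743 genes for TSLP and 4 of 7698 for IL-13 against TGF-beta. Of 322 differences of single genes, 270 stayed within the SD between the TGF-beta mice, which is wide for Ubd, and 52 moved beyond it. The sign turned in 5 of the 270 and 13 of the 52. No paired analysis was possible because only the TGF-beta group has more than 1 array. With 1 array in most groups, replicate spread could not be measured there.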
